A study of Mus musculus with 4 samples.

Results

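The rim of a kidney section is the place where the organ meets its surroundings, and the expression of the tissue spots lying on that rim was compared with that of the spots enclosed by tissue. Visium captures polyadenylated RNA on a hexagonal array of barcoded spots, in which a spot has 6 neighbour positions and can hold several cells of different types. A tissue spot was taken as an edge spot when 5 or fewer of its neighbour positions were under tissue, and as an interior spot when all 6 were. Of 10312 tissue spots in 4 sections, 1301 were edge spots and 9011 were interior spots. Edge spots numbered 312 of 2616 and 371 of 2682 in normal sections 1 and 2, and 262 of 2401 and 356 of 2613 in ischemic sections 1 and 2. All sections came from the left kidney of male WT C57BL/6J mice of 7 to 8 weeks, which was stripped of its capsule, snap frozen and cut at 10 µm, and all 4 lay on 1 slide. The normal group was labelled as normal control and the ischemic group as ischemic reperfusion injury, in which both renal pedicles were clamped for 30 min and the kidney was taken 24 h later. The labels do not tie a section to a mouse, and the study describes technical replicates. The p-values measure how the difference between edge and interior varies between sections, a spread that may in part be technical. For gene counts the fit shared its estimate of this spread over both conditions.

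The mouse kidney is layered from its surface inwards. The outermost cortex consists mostly of proximal tubules, which reabsorb glucose, phosphate and amino acids and make glucose themselves. Glomeruli, with their podocytes and the renin cells of the arteriole feeding them, lie a little deeper, as do the connecting tubules and collecting ducts that fine-tune calcium, sodium and acid. The straight proximal tubule and the thick ascending limb occupy the outer medulla. Fat surrounds the kidney and fills the renal sinus, and the pelvis is lined by urothelium. After ischemia the straight proximal tubule of the outer medulla is known as the segment hit hardest.

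**Figure D1:**
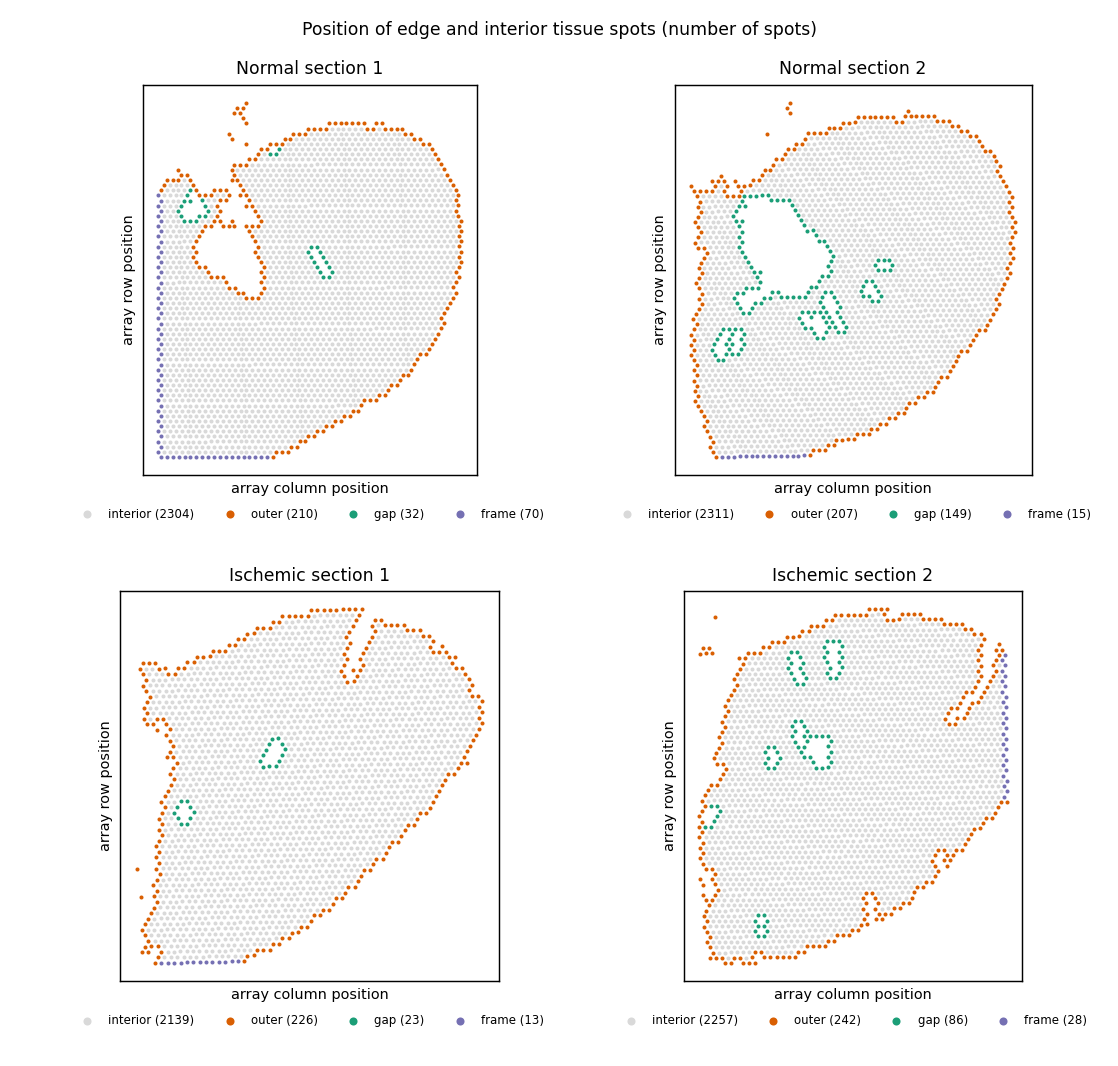
Map of the 4 sections, with each point 1 tissue spot placed by its array column and row. Interior spots are grey and edge spots are coloured by what they border, with the number of spots in brackets; the 203-spot cavity of normal section 2 is closed, whereas the cavity of normal section 1 opens to the outside.

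The edge was not 1 kind of place. By geometry, 885 edge spots faced the background outside the section (210 and 207 in normal, 226 and 242 in ischemic sections), 290 faced a gap enclosed by tissue (32 and 149, then 23 and 86), and 126 touched only the frame of the array (70 and 15, then 13 and 28), where tissue reached the last row or column of the array, so that whether it ended there was not seen. The largest gap, of 203 array positions, was the central cavity of normal section 2. A similar cavity in normal section 1 opened to the outside, so its lining counted as outer edge. Across these classes 58 edge spots had 2 or fewer tissue neighbours, some of them in small pieces apart from the section. When zones were assigned from marker genes, cortex took 59.9% and 53.9% of the edge spots of normal sections and 69.1% and 63.8% of those of ischemic sections, against 43.0% and 41.5% and 36.1% and 32.3% of interior spots. The pelvis took 14.1% and 11.9% of normal edge spots, against 3.8% and 3.9% of interior spots. A comparison of edge with interior therefore also compares superficial with deep kidney, and for this reason the outer edge was compared separately with the interior spots 2 and 3 array steps from the outer background (rings 2 and 3). There cortex took 71.9% and 82.6% of the outer edge against 72.4% and 78.7% of rings 2 and 3 in normal sections, and 74.3% and 69.8% against 73.6% and 68.3% in ischemic sections.

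RNA yield at the edge did not move one way. The sections held 44528078 and 27657481 unique molecular identifiers (UMIs, counted molecules) in normal and 31053530 and 25957128 in ischemic kidneys. The median edge spot held 14256 and 9779 UMIs in normal sections 1 and 2, against 16462 and 8555 in the interior, and 10414 and 9951.5 in ischemic sections 1 and 2, against 11946 and 8770. Edge spots were shallower in section 1 of each condition and deeper in section 2. The mean UMIs per edge spot were 0.879, 1.17, 0.881 and 1.12 times those of the interior, with a two-sided exact permutation p of 1.0 over the 4 sections, which cannot give a p below 0.125. Genes detected per spot thinned to 2000 UMIs differed between edge and interior by 16.5 and -2.96 genes in normal and by -20.3 and -17.8 genes in ischemic sections (exact permutation p = 0.375). Among cortex spots the edge had fewer genes in all 4 sections, with differences from -28.6 to -12.5 genes (exact permutation p = 0.125).

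The share of UMIs from mitochondrial transcripts, which encode subunits of the respiratory chain, was higher at the edge in 4 of 4 sections. It was 6.08% at the edge against 5.11% in the interior of normal section 1, 6.35% against 4.64% in normal section 2, 4.42% against 3.24% in ischemic section 1 and 4.71% against 3.86% in ischemic section 2. The mean difference was 1.18 percentage points, at the smallest p that 4 sections allow (two-sided exact permutation test, p = 0.125). Against rings 2 and 3 alone the difference was 0.719 points on average and again positive in every section. With 3 tissue neighbours the share was 6.29% and 6.88% in the normal pair of sections, and 5.03% and 5.18% in the ischemic pair. With 5 neighbours, just inside the rule, it was 5.93% and 5.51% and then 3.78% and 4.31%, which lay between the spots with 3 and those with 6 in every section. With 4 neighbours the share was 5.79% and 6.34% and then 4.42% and 4.63%, so in normal section 1 it was lower than with 5. Among the 13 mitochondrial genes, 7 rose at the normal edge (median log2 fold change 0.30) and 11 at the ischemic edge (median 0.43), but none was called in either condition without the section as a block, and none in normal sections without gap edge spots (medians 0.29 and 0.44, and then 0.42). The genes of cytochrome oxidase subunit 1 (mt-Co1) and NADH dehydrogenase subunit 1 (mt-Nd1) rose at the ischemic edge by log2 0.37 (SE 0.07) and 0.50 (SE 0.08), with adjusted p = 0.0040 and 0.0017.

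**Figure D2:**
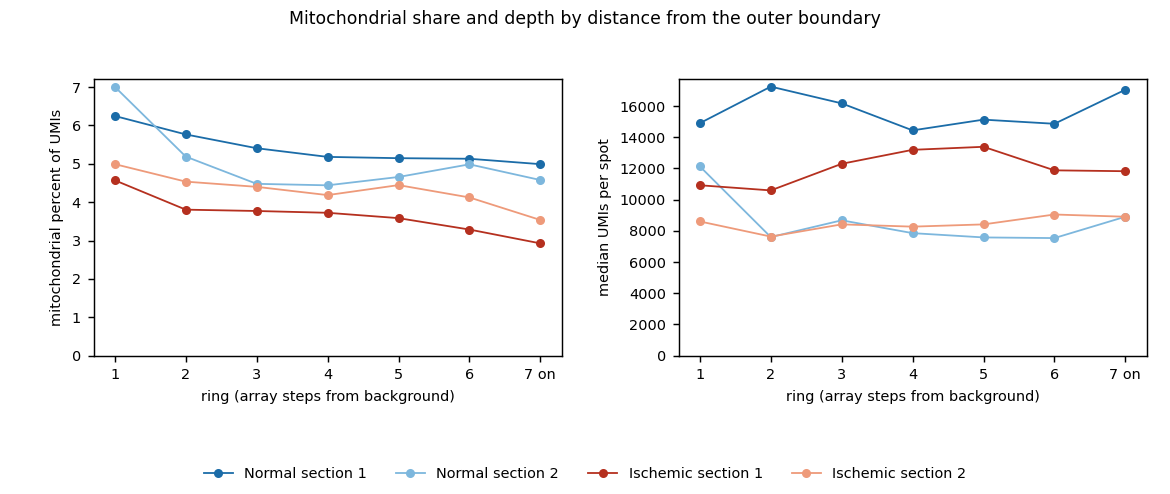
Mitochondrial percent of UMIs (left) and median UMIs per spot (right) for each section by ring, the number of array steps from the outer background, with ring 1 the outer edge. Ring 1 has a higher mitochondrial percent than ring 2 in every section, 7.01 against 5.19 in normal section 2 at the widest, whereas depth follows no common order.

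For gene expression, counts were summed over the edge spots and over the interior spots of each section and fitted with the section as a block in edgeR, and levels are given as CPM, counts scaled to the size of each sum with TMM factors. Of 14646 genes tested, 798 were higher and 722 lower at the normal edge (5.45% and 4.93% of those tested), and 1036 were higher and 547 lower at the ischemic edge (7.07% and 3.73%), at a Benjamini-Hochberg adjusted p under 0.05. The median over all genes tested was -0.01 in normal and -0.04 in ischemic sections, which TMM scaling sets near 0. Without gap edge spots the normal count fell to 422 and the ischemic count to 989, and in cortex spots alone to 692 and 204.

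The normal edge was marked above all by genes of fat cells. All 9 measured genes of the adipocyte list rose, by a median log2 of 3.68. Cfd, which encodes the adipokine complement factor D (chr10:79890853-79892655, mm10, plus strand), reached 1599 and 406 CPM at the edge of normal sections 1 and 2, against 89.8 and 46.0 CPM in the interior (log2 3.68, SE 0.18, adjusted p = 8.2e-08). The edge was higher in both sections, and the section 1 edge was above the section 2 edge. Markers of brown fat were part of the group. Ucp1, the uncoupling protein that lets brown fat make heat (chr8:83290352-83298452, mm10, plus strand), stood at 51.6 and 11.7 CPM at the edge and 1.65 and 0.517 CPM in the interior, the largest rise by the rule for named genes (log2 4.84, SE 0.24). Cidea, a lipid droplet protein of brown fat, and Cox8b, a cytochrome oxidase subunit found in brown fat and muscle, rose by log2 4.24 and 3.82. Other genes expressed in fat cells rose with them, among them the adipokines Adipoq at 3.85 and Retn at 3.57, the lipid droplet genes Cidec at 3.78 and Adig at 3.70, the haemoglobin-binding Hp at 3.53 and carbonic anhydrase Car3 at 2.93 (log2 fold changes, each with an adjusted p under 0.05).

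This fat signal was uneven over the edge. Cfd was counted in 85 of 312 edge spots of normal section 1 (27.2%) and 51 of 371 of normal section 2 (13.7%), and Adipoq in 47 and 17. In normal section 1 Ucp1, the narrowest, was counted in 13 of 312 edge spots, and the 10 richest held 96.8% of its 219 edge counts (95% exact interval 93.5 to 98.7%). In normal section 2 Ucp1 was counted in 5 of 371 edge spots, with 52 counts in all, and 92.3% of them lay in spots with 2 or fewer tissue neighbours. For Cfd the 10 richest edge spots held 62.9% of 6790 counts in normal section 1 and 90.6% of 1801 counts in normal section 2. These intervals cover counting error only. Leaving out the spots with 2 or fewer tissue neighbours, a choice made after the map was seen, kept all 9 adipocyte genes among the calls at a median of 3.05. The same list was also high at gap edges, where 9 of 9 genes rose in normal sections by a median of 4.47, with 6.02% of all genes tested higher there. At the frame none of the 9 passed, with a median of -0.12.

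No such rim was seen in the ischemic sections. None of the 9 adipocyte genes passed there in edgeR (median log2 0.01, 1 gene at an unadjusted p under 0.05 and 1 called by DESeq2), and the summed level of the list was 175 and 186 CPM at the edge against 219 and 209.8 CPM in the interior. Cfd had 2 and 0 counts at the ischemic edges and 7 and 8 in the interiors, and Adipoq had 0 and 0. Counts this low give no fold, and they stand against 6790 and 1801 counts of Cfd at the normal edges. The fat left on a kidney at dissection and the effect of ischemia cannot be told apart here.

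**Figure D3:**
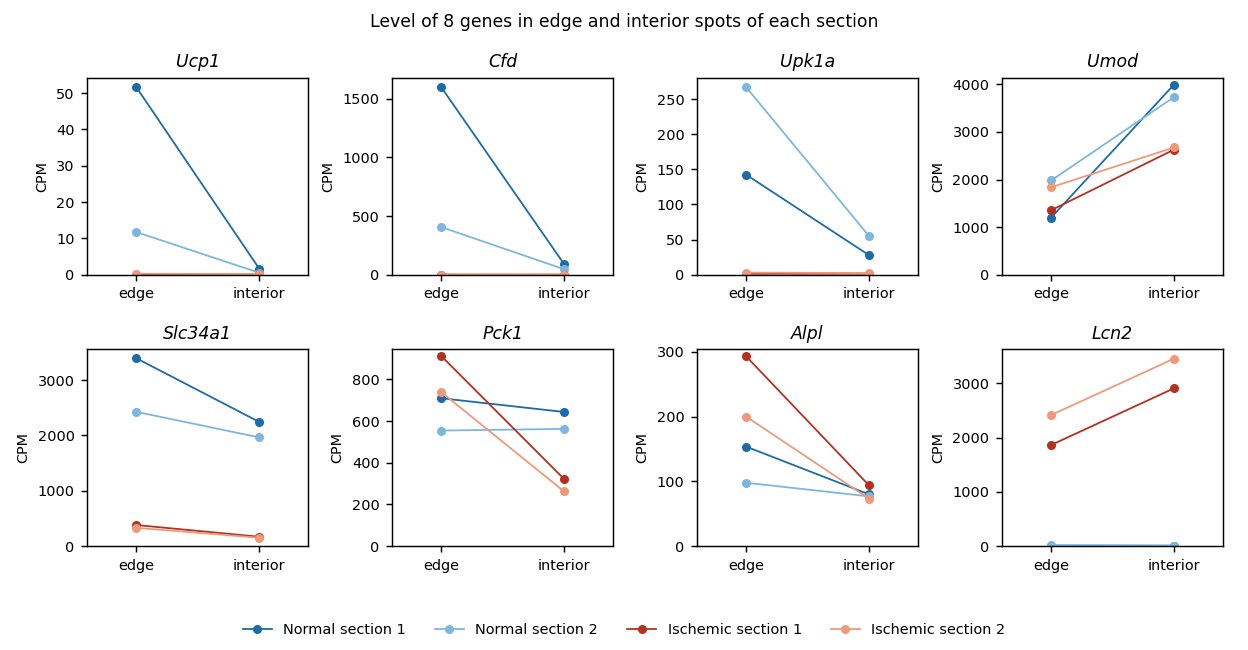
CPM of 8 genes in the edge and interior spots of the 4 sections, with a line joining the 2 values of a section and each panel on its own linear scale from 0. Ucp1, Cfd and Upk1a fall from edge to interior in both normal sections, Pck1 and Alpl fall most clearly in both ischemic sections, and Umod rises inwards in all 4.

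Urothelial genes were the other group high at the normal edge, with 6 of 6 higher at a median log2 of 2.38. Upk1a, which encodes a uroplakin of the urothelial plaque, stood at 142 and 267 CPM at the edge of normal sections and 27.7 and 54.9 CPM in the interior (log2 2.32, SE 0.07, adjusted p = 5.0e-09). Upk1b and Upk3a, other uroplakins, rose by 2.58 and 2.15. In cortex spots alone Upk1a and Upk3a were at -0.11 and -0.40 and not called, and without gap edge spots Upk3a was at 1.19 and not called. The same 6 genes mark the pelvis zone, which cortex spots leave out, so the fit on cortex spots cannot test them. At the gap edges, which include the cavity of normal section 2, the list reached a median of 3.26 with 6 of 6 called. In normal section 2 its summed level was 3391 CPM at gap edges and 385 CPM at the outer edge, against 371 CPM in the interior, so the outer rim of this section was close to its interior. In normal section 1, whose cavity opens outside, the urothelium list stood at 915 CPM at the outer edge against 180.2 CPM in the interior. Without gap edge spots 3 of 6 urothelial genes were called. At the ischemic edge 2 of 6 passed, led by Upk3a at 18.4 and 38.8 CPM against 5.91 and 8.24 CPM (log2 2.01, SE 0.15), which was 0.56 and no longer called without gap edge spots.

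Mesenchymal and early response genes were also higher at the normal edge. Of all genes tested 5.45% were higher. Of 8 smooth muscle genes 5 rose (median 0.91), of 14 fibroblast and matrix genes 6 rose (median 0.70), and of 12 immediate early genes 9 rose (median 0.49). Without gap edge spots 0, 1 and 0 of these were called. The rise was uneven between sections: the smooth muscle list summed to 604 CPM at the edge against 218 CPM in the interior of normal section 1, and to 363 against 325 CPM in normal section 2. By class, smooth muscle summed to 1659 CPM at gap edges and 599 CPM at the outer edge of normal section 1, and to 760.2 and 139.7 CPM in normal section 2. The fibroblast and matrix list summed to 616 against 372 CPM and 588 against 487 CPM. Acta2, the smooth muscle actin, had 292 and 150 CPM at the normal edge against 82.2 and 130 CPM in the interior (log2 1.05, SE 0.25, adjusted p = 0.016). Its value was 0.19 without normal section 1 and -0.46 in cortex spots alone, where it was called lower. The collagen gene Col1a1 (log2 0.63) and the transcription factor gene Fos (0.54) were likewise lost in cortex spots alone. Of 12 tubular injury genes 7 were higher at the normal edge, where the list summed to 3047 and 3679 CPM against 1897 and 2165 CPM in the interior. Lcn2, the injury marker lipocalin 2, was low in level and stood at 8.24 and 13.5 CPM against 5.61 and 6.89 CPM. None was called without gap edge spots, and 4 were called lower in cortex spots alone, against 371 of 12497 genes tested.

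Genes of the outer medulla were low at the normal edge. All 5 straight proximal tubule genes fell (median -1.18) and all 5 thick ascending limb genes fell (median -1.10), against 4.93% of all genes tested. Umod, which encodes uromodulin, the main urinary protein made by the thick ascending limb, stood at 1200 and 1980 CPM at the edge and 3995 and 3733 CPM in the interior (log2 -1.32, SE 0.15, adjusted p = 0.00011). Of the 10 largest falls, the long non-coding RNA gene Eprn led with 4.47 and 7.66 CPM against 23.8 and 21.7 CPM (log2 -1.90, SE 0.21). Cldn16, a claudin for magnesium reabsorption in the thick ascending limb, fell by 1.57 on the log2 scale. Others were Serpina1f and Serpina1b of the antitrypsin family (-1.64 and -1.41), the organic anion transporter family members Slc22a26 and Slc22a19 (-1.57 and -1.45), the steroid dehydrogenase Akr1c18 (-1.52), the brush border protease Mep1b (-1.41), Mettl7a2 (-1.62) and Apobec2 (-1.52). Akr1c18 (-0.41), Slc22a19 (-0.56), Slc22a26 (-1.38) and Serpina1b (-0.71) were not called in cortex spots alone. The Serpina1, Slc22a and Cyp4a genes have near-identical paralogs, so reads may be split between them.

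Proximal tubule genes of the convoluted segment lay at the rim in both conditions. In normal sections 6 of 8 were higher and 1 lower (median 0.57), and in ischemic sections 7 of 8 were higher (median 0.93). When fitted on cortex spots, 7 and 5 of 8 were called higher, at medians of 0.36 and 0.34, against 321 and 143 of 12497 genes tested. Most of the 8 genes also mark the cortex zone, so that fit is not independent of the choice of spots. Slc34a1, the phosphate transporter of the early proximal tubule, had 3395 and 2426 CPM at the normal edge against 2245 and 1965 CPM in the interior (log2 0.45, SE 0.07, adjusted p = 0.0014). At the ischemic edge it had 379 and 328 CPM against 167 and 150 CPM (log2 1.16, SE 0.08, adjusted p = 2.9e-06). The edge was thus higher in 4 of 4 sections, while both ischemic positions lay far below both normal ones. The glucose transporter gene Slc5a2 rose by 0.67 in normal and 1.16 in ischemic sections.

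The ischemic edge was marked by proximal tubule metabolism. All 6 gluconeogenesis genes rose (median log2 1.27, 7.07% of all genes tested higher), as did 12 of 14 fatty acid oxidation genes (median 0.58). Pck1, the key enzyme of glucose production (chr2:173153048-173159273, mm10, plus strand), reached 912 and 739 CPM at the ischemic edge against 322 and 262 CPM in the interior (2.83-fold, log2 SE 0.07, adjusted p = 2.7e-07), whereas normal sections held 710 and 555 CPM at the edge and 644 and 563 CPM in the interior. In these sums, which pool outer, gap and frame edge spots, the ischemic edge stood above every normal value of this gene and the ischemic interior below them. In ring 1 alone, given below, the normal values were higher than in these edge sums, and still under those of ischemic ring 1. G6pc and Fbp1, which complete glucose synthesis, rose by 1.29 and 1.25. In cortex spots alone 5 of 6 gluconeogenesis genes (median 0.59) and 5 of 14 fatty acid oxidation genes (median 0.22) were called higher.

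Other leading rises at the ischemic edge were of the same segment. Alpl, tissue-nonspecific alkaline phosphatase (chr4:137741733-137796384, mm10, minus strand), had 293 and 200 CPM against 93.7 and 73.2 CPM (log2 1.55, SE 0.11). Fabp1, a fatty acid binding protein, had 35.8 and 21.3 CPM against 9.64 and 7.91 CPM (log2 1.68, SE 0.17), while it was counted 21 times or fewer at either position of the normal sections. Cyp4a14, a fatty acid hydroxylase, had 243 and 144 CPM at the ischemic edge against 79.7 and 63.0 CPM (log2 1.41, SE 0.09), and under 10 CPM at both positions of normal sections. The remaining rises by the rule were the secreted phosphoprotein Spp2 (log2 1.54), the fructose transporter Slc2a5 (1.51), the glycine-cleaving Gldc (2.83-fold), the fatty acid hydroxylase Cyp4a12a (log2 1.45) and the proline and hydroxyproline catabolism gene Prodh2 (log2 1.41).

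Injury genes, in contrast, were lower at the ischemic edge. Of 12 tubular injury genes 7 fell and none rose (median -0.36), against 3.73% of all genes tested lower there. In cortex spots alone 6 were lower, against 61 of 12497 genes tested. Lcn2 stood at 1863 and 2415 CPM against 2908 and 3454 CPM (log2 -0.58, SE 0.07, adjusted p = 0.00013), and the keratin Krt20 at 103 and 157 CPM against 217 and 232 CPM (log2 -0.80). Havcr1, kidney injury molecule 1, had 992 and 1204 CPM against 1326 and 1302 CPM and did not pass (log2 -0.26, SE 0.09, adjusted p = 0.10). In cortex spots alone Havcr1 was called lower (log2 -0.30, adjusted p = 0.005) and Lcn2 was not called (log2 -0.31, adjusted p = 0.056). Without the section as a block Lcn2 was at -0.57 and not called. At the normal positions Lcn2 was at most 13.5 CPM, so the ischemic edge was low against its own interior and not against normal kidney. Of 12 immediate early genes 8 fell (median -0.45), of 14 fibroblast and matrix genes 9 fell (median -0.75), and of 11 chemokine genes 5 fell (median -0.68), among them Ccl2, which draws in monocytes (log2 -0.99, SE 0.20). Among cortex spots no immediate early or chemokine gene was called, and 5 fibroblast genes were. The largest falls were Slpi, a protease inhibitor of injured epithelium, at 33.0 and 43.7 CPM against 110 and 101 CPM (log2 -1.44, SE 0.11), Serpina1a (-1.40), the activin antagonist Fst (-1.32), the neurosecretory protein gene Vgf (-1.08), Serpina1f (-1.07), the prostaglandin receptor Ptger3 (-1.06), the chemokine Ccl6 (-1.03), lysozyme Lyz2 of macrophages and neutrophils (-1.03), the matrix protein Smoc2 (13.3 and 16.6 CPM against 31.7 and 29.2 CPM) and the ERK phosphatase Dusp5 (-0.99). In cortex spots alone Fst was not among the genes tested, and none of the other 9 was called. Of these, some had values of a similar or larger size, such as Smoc2 at -1.55 and Vgf at -0.996, and others were smaller, such as Slpi at -0.34. Serpina1f and Ptger3 are themselves markers of deeper zones, so the fit on cortex spots cannot test them.

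**Figure D4:**
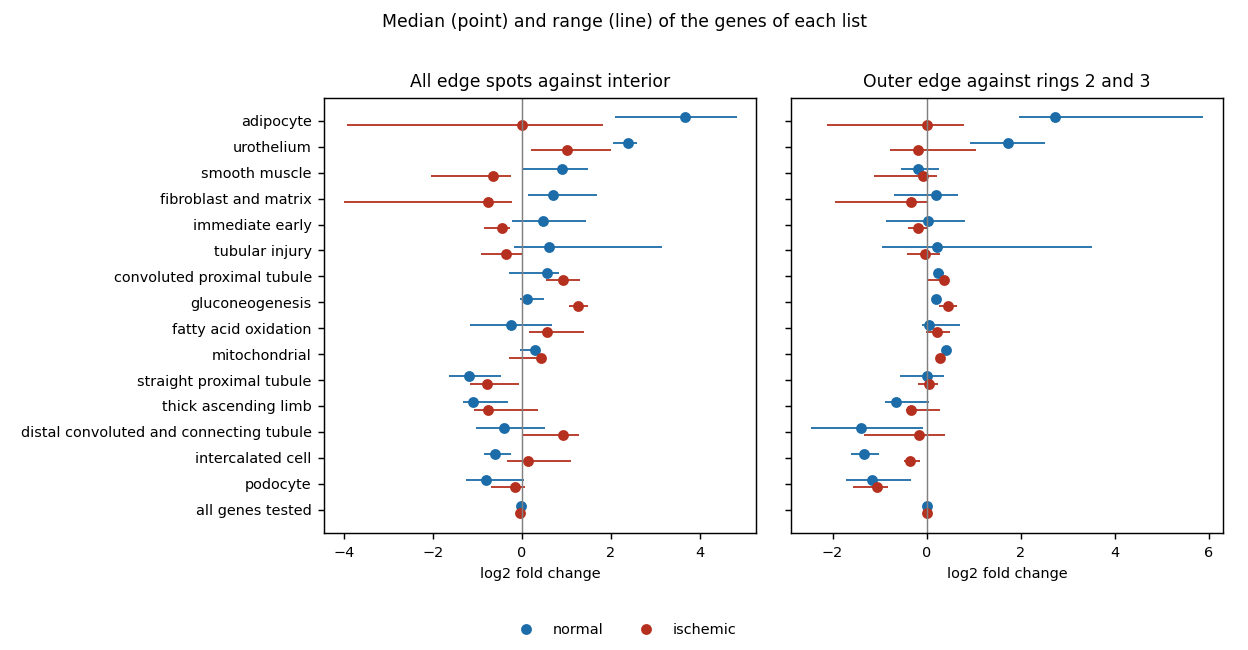
Log2 fold change of the genes of 15 lists, with points for the median, lines from the lowest to the highest gene, and normal in blue and ischemic in red, for edge against interior (left) and outer edge against rings 2 and 3 (right). The bottom entry is the median over all genes tested, drawn without a range, and lists such as immediate early lie right of 0 in normal and left of 0 in ischemic sections on the left panel but near 0 on the right.

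The difference between conditions in the edge effect was itself tested. The edge effect was more positive in ischemic sections for 1021 genes and more negative for 612 (6.97% and 4.18% of 14646). This count depended on the gaps: the sum of both was 1633, against 132 without gap edge spots and 112 in cortex spots alone. All 6 gluconeogenesis genes and 11 of 14 fatty acid oxidation genes were more positive in ischemic sections, and 11 of 14 fibroblast, 10 of 12 immediate early and 8 of 12 tubular injury genes were more negative. Without gap edge spots these counts were 3 and 6, and then 1, 0 and 0. Immunoglobulin genes were near 0 at the ischemic edge. Jchain, the joining chain of secreted antibody made by plasma cells, had 15.8 and 29.3 CPM at the normal edge against 2.83 and 4.26 CPM in the interior, and 0 counts at either ischemic edge against 22 and 3 in the interiors. Igkc had 94.4 and 159 CPM at the normal edge, with 401 and 705 counts there and 0 and 1 counts at the ischemic edges.

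Comparing the outer edge with rings 2 and 3 gave fewer calls over all spots. Of 11975 genes tested, 34 were higher and 66 lower at the normal outer edge (0.284% and 0.551%), and 3 were higher and 3 lower at the ischemic outer edge (0.0251% each). Within cortex spots this was not so, with 803 and 284 calls of 11161 genes here against 692 and 204 of 12497 for edge against interior. Fat again led in normal sections, with 9 of 9 adipocyte genes higher (median 2.73). Cfd stood at 1537 and 352 CPM against 217 and 35.5 CPM in rings 2 and 3 (log2 3.02, SE 0.14). Ucp1 had 179 and 48 counts at the outer edge against 6 and 0 in rings 2 and 3 (log2 5.88, SE 0.38), followed by Cidea (4.19), Cox8b (4.06) and Adig (3.28). Leaving out spots with 2 or fewer tissue neighbours lowered the number of genes higher from 34 to 12 and the adipocyte genes called to 5 of 7 tested.

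The genes lowest in the outermost ring were those of the connecting tubule. Klk1, the tissue kallikrein secreted by the connecting tubule (chr7:44225360-44229618, mm10, plus strand), stood at 1710 and 3172 CPM at the normal outer edge against 11036 and 14989 CPM in rings 2 and 3 (log2 -2.46, SE 0.16, adjusted p = 6.1e-06). In ischemic sections it stood at 1388 and 711 CPM against 2750 and 2250 CPM (log2 -1.32, SE 0.15, adjusted p = 0.017). The outer edge was lower in 4 of 4 sections, and the difference between conditions did not pass (log2 1.14, SE 0.21, adjusted p = 0.15). Klk1 belongs to a cluster of closely related kallikrein genes, so its reads may be shared. By ring it rose from 1778 CPM in ring 1 to 6932 CPM in ring 2 and 16249 CPM in ring 3 of normal section 1, and from 3287 to 12733 and 18018 CPM in normal section 2, so the step spanned more than 1 spot.

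Calcium and sodium handling went with it in normal sections. Calb1, calbindin-D28k, had 80.7 and 106 CPM against 417 and 560 CPM (log2 -2.39, SE 0.27), and the sodium-calcium exchanger gene Slc8a1, calbindin-D9k (S100g) and the epithelial sodium channel gene Scnn1b fell by 2.19, 1.92 and 1.64 on the log2 scale. Of the 6 distal convoluted and connecting tubule genes 4 fell (median -1.40). Slc12a3, the sodium chloride cotransporter of the preceding distal convoluted tubule, fell less, by 0.61 (SE 0.09). Of 6 intercalated cell genes, which secrete acid or base, 4 fell (median -1.32). Among them the proton pump subunit Atp6v1g3 had 127 and 201 CPM against 435 and 553 CPM (log2 -1.62, SE 0.12), and the transcription factor Foxi1 fell by 1.49. In cortex spots alone 4 of 6 and 6 of 6 of these lists were lower, at medians of -1.39 and -1.47. At the ischemic outer edge 1 of 6 and 0 of 6 were called (medians -0.16 and -0.36). In cortex spots alone, where 284 of 11161 genes were called there, Atp6v1g3 was called lower (log2 -0.55, adjusted p = 5.1e-08). Calb1 was at 0.08 in that fit and not called. The difference between conditions passed for 3 genes that were more positive in ischemic sections and 4 that were more negative (0.0251% and 0.0334% of 11975). S100g stood there at 2945 and 1651 CPM against 2577 and 2036 CPM, and its difference between conditions passed (log2 1.87, SE 0.17, adjusted p = 0.0011), as did that of Atp6v1g3 (1.16, SE 0.16, adjusted p = 0.028).

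Podocyte transcripts were also low in the outermost ring, in both conditions. Podxl, the podocalyxin of podocyte foot processes (chr6:31519488-31563981, mm10, minus strand), had 26.1 and 41.4 CPM against 56.4 and 87.6 CPM in normal sections (log2 -1.09, SE 0.12, adjusted p = 0.00067) and 45.7 and 42.6 CPM against 85.9 and 69.7 CPM in ischemic sections (log2 -0.82, SE 0.12, adjusted p = 0.039). The outer edge was lower in each section. Podxl is also made by endothelium, of whose 8 listed genes none was called in either condition (medians -0.28 and -0.13). The median over the 8 podocyte genes was -1.15 in normal sections, with 2 called, and -1.05 in ischemic sections, with 1 called, and in cortex spots alone 6 of 8 were called in each, in fits that also called more genes in all (803 and 284).

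Ren1, renin (chr1:133350510-133360325, mm10, plus strand), had 13.6 and 44.9 CPM at the normal outer edge against 52.4 and 119.5 CPM in rings 2 and 3 (log2 -1.61, SE 0.14, adjusted p = 7.3e-05), and 34.1 and 39.1 CPM against 75.3 and 80.0 CPM in ischemic sections (log2 -1.09, SE 0.14, adjusted p = 0.017). By ring it peaked 3 to 4 steps in, at 191 CPM in ring 4 of normal section 1 and 174 CPM in ring 4 of normal section 2, and at 99.3 CPM in ring 3 and 121 CPM in ring 4 of ischemic sections 1 and 2. In bulk sums such as these, fewer cells of a type and less RNA per cell cannot be told apart.

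**Figure D5:**
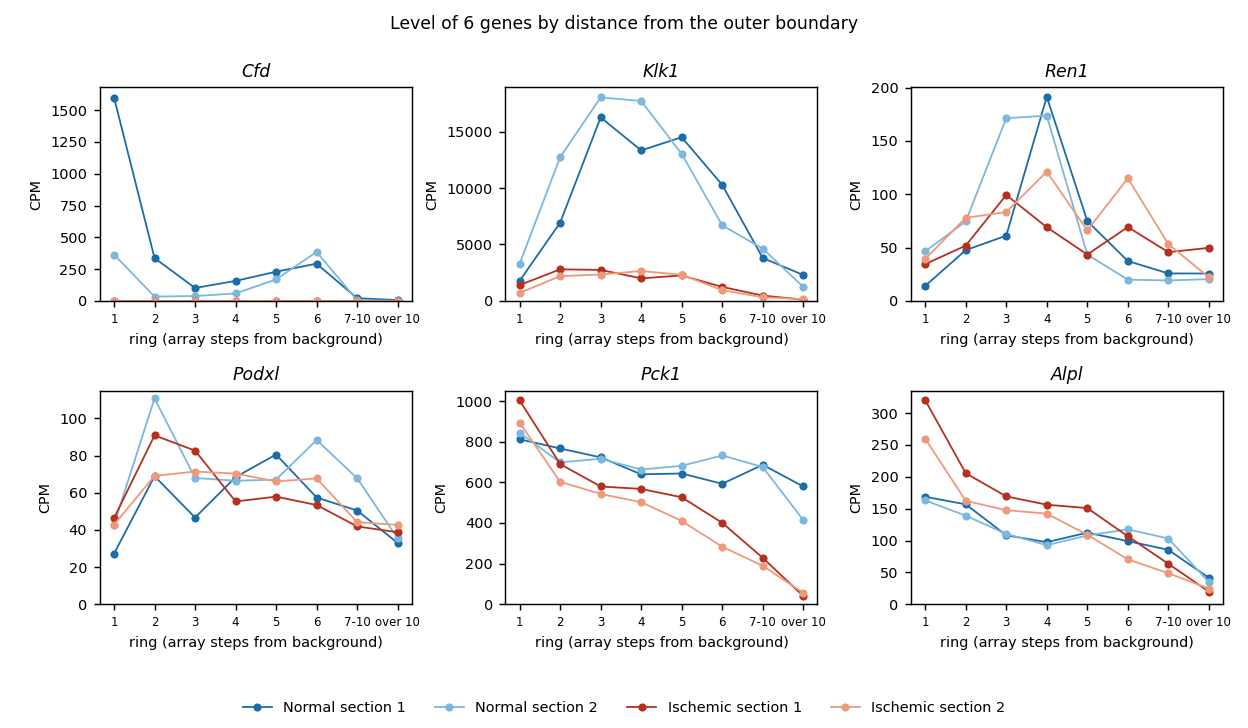
CPM of 6 genes by ring, the number of array steps from the outer background (ring 1 is the outer edge; the last 2 positions pool rings 7 to 10 and all deeper spots), for each section, with every vertical axis linear from 0. Klk1, Ren1 and Podxl are lower in ring 1 than in rings 2 and 3 in all 4 sections, whereas Pck1 and Alpl decline steadily inwards in ischemic sections.

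The 3 genes that rose at the ischemic outer edge against the next rings are proximal tubule genes. Alpl had 316 and 258 CPM against 185 and 154 CPM (log2 0.76, SE 0.09, adjusted p = 0.017), Pck1 had 990 and 888 CPM against 628 and 568 CPM (log2 0.65, SE 0.09, adjusted p = 0.031), and the dicarboxylate transporter gene Slc13a3 had 347 and 336 CPM against 221 and 221 CPM (log2 0.63, SE 0.09, adjusted p = 0.047). In normal sections Pck1 and Alpl differed by 0.17 and 0.35 and did not pass. In cortex spots alone both were called higher in normal sections too, at 0.26 and 0.37 (edgeR adjusted p = 0.00067 and 0.00055). The difference between conditions passed for neither gene. By ring, Pck1 in ischemic section 1 went from 1003 CPM in ring 1 through 567 CPM in ring 4 to 40.4 CPM beyond ring 10, and in ischemic section 2 from 894 through 502 to 55.6 CPM. In normal sections it went from 812 and 844 CPM in ring 1 to 580 and 414 CPM beyond ring 10. None of the 6 ischemic calls, those of Klk1, Ren1 and Podxl among them, held when the section was not taken as a block. With either ischemic section left out, the values stayed close for Alpl (0.75 to 0.77) and Pck1 (0.65 to 0.66). They moved more for Klk1 (-1.66 to -0.99) and Podxl (-0.91 to -0.71). In cortex spots alone 284 genes were called in ischemic sections, with 5 of 6 gluconeogenesis genes higher (median 0.47).

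Spots at the frame met the rule without facing any background position. None of 12003 genes was called there in either condition, with 527 and 841 genes at an unadjusted p under 0.05 and 0 and 6 called by DESeq2. Few spots stood behind this, 13 to 70 a section, and their median UMIs ranged from 2808 (normal section 2) to 12676 (normal section 1). Gap edges gave 723 genes higher and 429 lower in normal sections (6.02% and 3.57% of 12003) and 5 higher and 4 lower in ischemic sections. The normal gap count was 225 without normal section 2, which held 149 of the normal gap spots against 32 in normal section 1.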

How the data were processed

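Visium counts of 4 mouse kidney sections were used. The authors deposited unnormalized UMI counts for every gene in each spot, made with Space Ranger 1.3.0 per the file headers against mm10 per the submitters' processing notes, with 32285 genes and 4992 array positions a section. Tissue calls came from the deposited spot positions. Counts were summed per section and position and fitted with edgeR 4.0.16 in R 4.3.3 (TMM factors, filterByExpr, quasi-likelihood test, section as a block), and DESeq2 1.42.0 was an alternative. A call needed an adjusted p under 0.05. SEs are the log2 fold change over the square root of F. Spot measures were tested by exact permutation over sections in Python 3.11.15 with scipy 1.17.1, after thinning to 2000 UMIs where genes were counted. Gene positions are whole gene spans from GENCODE on the mm10 build.

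The block was checked: edge and interior sums of 1 section deviated together in normal sections (r = 0.387) and less so in ischemic sections (r = 0.175). Normal and ischemic sections that share only the label's number gave r = 0.113 at the edge and 0.222 in the interior. The ischemic value lay below the latter, so this check does not bear out the block in ischemic sections. Barcodes name array positions, and 1490 tissue barcodes occurred in all 4 sections. Members and gene lists were chosen with earlier results of these data known. Named genes were the 10 largest rises and falls of edge against interior per condition among calls with the same direction in both sections and at least 20 CPM in the higher position, the 5 largest each way for the outer edge and for each difference, and members of the lists. Zones were assigned from marker genes over a spot and its neighbours. These markers include genes of the urothelium, convoluted and straight proximal tubule, thick ascending limb and collecting duct lists, and Slc12a3 and Cryab. For these genes a fit on cortex spots is not independent of the choice of spots. On simulated counts with 50 genes changed at each size, edge against interior in normal sections recovered 47 at 4-fold, 34 at 2-fold and 29 at 1.5-fold, with 3 false calls of 14646 genes. The outer edge against rings 2 and 3 recovered 50, 34 and 14, with 1 false call of 11975 genes. At 0.5-fold the 2 comparisons recovered 31 and 26. The counts were drawn with the fit's own estimate of the spread, so the false calls do not measure those in real sections.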

Additional observations from a re-analysis of the deposited data

Results flagged for a closer look

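The edge effect differed between conditions by the interaction test in edgeR for 1633 genes. The largest positive differences (ischemic minus normal, log2) were 2.40 for Apobec2, 2.33 for Cyp4a14, 2.16 for Calb1, 2.11 for Cyp4a10 and 2.10 for Slc8a1. The largest negative ones were -8.27 for Jchain, -5.60 for Igkc, -5.32 for Igha, -4.53 for Cidea and -4.41 for Ucp1. These 5 had 2 or fewer counts at each ischemic edge, so their fitted values depend on the prior count and are no bound. Without the replicate block all 5 lost their call at values close to these. Without ischemic section 1 Jchain was at -6.65, Igkc at -2.68, Igha at -6.57 and Ucp1 at -3.9. Calb1 and Slc8a1 lost their calls without the block (2.08 and 2.09) and without gap edge spots (1.72 and 1.87).

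At the outer edge against rings 2 and 3 the interaction passed for 7 genes. The positive differences were 1.87 for S100g, 1.16 for Atp6v1g3 and 0.82 for the defensin gene Defb1. The negative ones were -3.06 for the desaturase gene Scd1, -2.80 for Thrsp and -2.14 for Fabp4, both genes of lipid metabolism, and -1.75 for the interferon-inducible Ifi27l2a. Without edge spots of 2 or fewer tissue neighbours 1 gene passed.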

How the results depend on the processing

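With 2 sections a condition, the counts of calls depended on the processing more than directions did: of 1919 values of named genes under alternatives, 1644 kept their call, 225 lost it, 30 gained one, 8 calls changed sign and 12 uncalled values did. Unless given below, the cause was not tested. For edge against interior, in the order normal (1520 calls), ischemic (1583) and their difference (1633), DESeq2 gave 587, 885 and 881, thinned spots 604, 716 and 746, cortex spots alone 692, 204 and 112, and gap edge spots left out 422, 989 and 132. Without the replicate block the counts were 551, 370 and 253. For the outer edge in the same order (100, 6 and 7 calls), no filter on low counts gave 310, 38 and 62, cortex spots alone 803, 284 and 99, no replicate block 63, 0 and 0, and a block by the label's number 0 and 0 for the latter 2. There 530 and 422 genes without a block, and 593 and 460 with the number block, had an unadjusted p under 0.05. DESeq2 gave 30 and thinning 45 in normal sections, ring 2 alone 61 and 1 in normal and ischemic sections, and for the difference thinning gave 4 and leaving out spots of 2 or fewer neighbours 1. Leaving out 1 section assumes that the lone section left varies like the others. It gave 754 (without ischemic section 1) to 2667 (without normal section 1) calls at the ischemic edge. At the outer edge it gave 122 to 787 in normal sections (787 without normal section 1, 515 without normal section 2), 0 to 335 in ischemic sections (0 without either ischemic section, 335 and 314 without normal sections 1 and 2) and 4 to 366 for the difference (366 without normal section 2). At the frame, with 0 calls, no filter gave 31 and 47 in normal and ischemic sections, DESeq2 6 in ischemic sections, and leaving out a section 2 to 32 and 0 to 23. At gaps the normal count of 1152 was 756 with DESeq2, 1960 with no filter and 225 (without normal section 2) to 1736 (without normal section 1), and the ischemic count of 9 was 84 with no filter, 15 without the replicate block, 16 with the number block and 5 to 185 (without ischemic section 2). The mean UMI ratio of edge to interior ranged from 0.953 (without normal section 2) to 1.047 (without normal section 1), and was also below 1 without ischemic section 2 (0.967). In cortex spots alone the normal edge values reversed for Upk1a (-0.11), Upk3a (-0.40), Acta2 (-0.46), Col1a1 (-0.0031), Slc7a13 (0.19) and Fos (-0.59), and without gap edge spots for Acta2 (-0.0467) and Lcn2 (-0.18). Upk1a, Upk3a and Slc7a13 mark zones other than cortex, so their values in cortex spots depend on how those spots were chosen.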

Other observations

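Other lists gave these counts. Of all genes tested, 5.45% were higher and 4.93% lower at the normal edge, and 7.07% and 3.73% at the ischemic edge. Small counts such as 1 of 10 lie near these shares, and no list was tested against them. Of edge against interior in normal sections, 2 of 5 mesothelium genes rose and 1 fell, 3 of 7 collecting duct and inner medulla genes rose and 1 fell, 2 of 9 macrophage and monocyte genes rose and 1 fell, 3 of 10 complement genes rose, 3 of 8 heat shock genes rose, 2 of 13 hypoxia response genes rose, 1 of 10 interferon-stimulated genes rose, 2 of 5 B and plasma cell genes rose (median log2 0.63), 2 of 8 endothelium genes fell, both metallothionein genes fell, 0 of 5 neutrophil genes passed (0 at an unadjusted p under 0.05 and 0 by DESeq2) and 18 of 81 ribosomal protein genes rose (median log2 0.14).

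In ischemic sections 1 of 5 mesothelium genes rose, 2 of 7 collecting duct and inner medulla genes rose and 1 fell, 1 of 9 macrophage and monocyte genes fell, 1 of 10 complement genes rose and 1 fell, 3 of 8 heat shock genes fell, 2 of 13 hypoxia response genes rose and 1 fell, 2 of 10 interferon-stimulated genes fell, 2 of 5 neutrophil genes fell, 1 of 5 B and plasma cell genes fell (median log2 -1.40, on few counts), 2 of 8 endothelium genes fell and both metallothionein genes fell. None of the 81 ribosomal protein genes was called by edgeR or DESeq2 or had an unadjusted p under 0.05 (median log2 -0.04). By edgeR no gene of the red blood cell, T and NK cell or MHC class II lists (5, 8 and 7 tested) passed in either condition, nor did any by DESeq2. At an unadjusted p under 0.05 these were 5, 0 and 4 genes in normal and 0, 0 and 1 gene in ischemic sections. The 5 red blood cell genes had a median log2 of -0.59 at the normal edge, with a summed level at the edge of 1.031 times the interior in normal section 1 and 0.423 times in normal section 2.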
